A study of Mus musculus with 6 samples.

Results

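Axon guidance genes encode the secreted and membrane-bound cues, and the cell surface receptors for them, that steer growing axons and migrating cells. They were taken from the gene rows by symbol: semaphorins (*Sema3* to *Sema7*), plexins, neuropilins, Slits, Robos, netrins (*Ntn1* to *Ntn5*), Unc5 receptors, Eph receptors and ephrins. In total, 67 of the 54525 gene rows listed carried such a symbol, 34 of them ligands and 33 receptors. The rows were picked by name alone and by no measured value, but the rule was set with earlier results of these data known.

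These genes were compared between myoblasts (D0, n = 3) and myotubes (D5, n = 3) of C2C12, an established mouse myoblast line whose cells leave the cell cycle and fuse into multinucleated myotubes. All 6 cultures were wild type and without treatment. Myoblasts were kept in growth medium with fetal bovine serum, whereas myotubes had been kept in differentiation medium with horse serum, so that medium, day and differentiation cannot be told apart. A culture of a single line held no neurons, vessels or fibroblasts of a muscle, and the p-values measured the spread between cultures of this line.

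Semaphorins signal through plexins, and the secreted class 3 semaphorins bind neuropilins as co-receptors for plexins. Slits bind Robo receptors, netrins bind Dcc, neogenin and the Unc5 receptors, and ephrins bind Eph receptor tyrosine kinases on neighbouring cells, where signals can run into both cells. In muscle these families are known from the innervation and vessel growth of the tissue and from the migration of myogenic precursors.

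Sequencing depth lay between 36555048 and 40895840 counts on genes in the D0 libraries and between 25449759 and 25811300 in the D5 libraries, and the 67 guidance genes took between 0.323% and 0.344% of them. Muscle markers summed to between 2308 and 2405 CPM (counts per 1000000 counts on genes, scaled with TMM factors) at D0 and between 13255 and 13962 CPM at D5. Of the 8 muscle markers 6 were higher at D5, while *Myod1* and *Myf5* were lower (log2 fold changes -0.71 and -2.32). The 4 proliferation markers all fell, from a sum between 1547 and 1564 CPM to one between 47.4 and 55.8 CPM. Of the 4 neuronal markers, *Rbfox3* had 0 counts in all 6 libraries, *Snap25* had at most 1 and *Syt1* at most 5, and the neuronal sum of 3.33 to 4.21 CPM at D0 and 31.3 to 35.8 CPM at D5 came from *Stmn2*. The endothelial sum lay between 3.31 and 3.59 CPM at D0 and between 0.517 and 0.884 CPM at D5, the Schwann cell sum between 1.79 and 2.04 and between 1.12 and 1.23 CPM, the immune sum between 3.16 and 3.39 and between 1.85 and 2.64 CPM, and the adipocyte sum was at most 0.0405 CPM in any library. *Sox10* and *Ptprc* had at most 1 count, and *Adgre1* had 0.

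Of the 67 guidance genes, 8 were not detected, with at most 3 counts in every library, which is 0.0734 to 0.118 counts per 1000000 counts on genes before TMM scaling and covers counting error only. They were the receptors *Epha5*, *Epha6*, *Epha8*, *Epha10*, *Robo3*, *Robo4* and *Unc5d* and the ligand *Slit3*. A further 3, *Epha3*, *Sema5b* and *Unc5a*, had at most 9 counts in any library and were removed by the filter on low counts. Among the 56 tested, 31 were higher in myotubes (55.4%) and 19 were lower (33.9%) in edgeR's quasi-likelihood test at an adjusted p below 0.05, referred to as called. With scaling to the ERCC spike-ins, synthetic RNAs added to the samples, 14 were called higher and 16 lower, so the larger number of higher calls depended on the scaling. Over all 16290 genes tested, 42.2% were called higher and 40.8% lower, 82.9% in either direction. The guidance genes called in either direction made up 89.3% of those tested, and 60.7% were called with a change of at least 2-fold, beside 35.3% of all genes.

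The median log2 fold change (D5 against D0) of the 56 genes was 0.46, beside 0.0022 over all genes tested, and the median of its size was 1.14, beside 0.67. In 31 genes every D5 library lay above every D0 library, in 19 every D5 library lay below, and in 6 the groups overlapped, while 83.3% of all genes tested showed no overlap. *Ephb1*, *Ntn5*, *Sema4d* and *Slit1* passed the filter through the myotube libraries alone and *Plxnc1* through the myoblast libraries alone, so these 5 had to differ. Ligands and receptors divided differently by count: 20 of the 32 ligands tested were higher and 9 lower (median log2 fold change 0.96), and 11 of the 24 receptors tested were higher and 10 lower (median 0.11). With scaling to the ERCC spike-ins, semaphorins called higher numbered 4 and lower 3, and ephrins 0 and 4. Of the Slits and netrins, *Slit1*, *Slit2*, *Ntn4* and *Ntn5* were still called higher and *Ntn1* lower. The larger number of ligands called higher therefore depended on the scaling. Among receptors, plexins and neuropilins called higher then numbered 1 and lower 4. The difference between ligands and receptors was not tested. In these bulk libraries fewer cells that express a gene and less of its RNA per cell cannot be told apart.

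**Figure D1:**
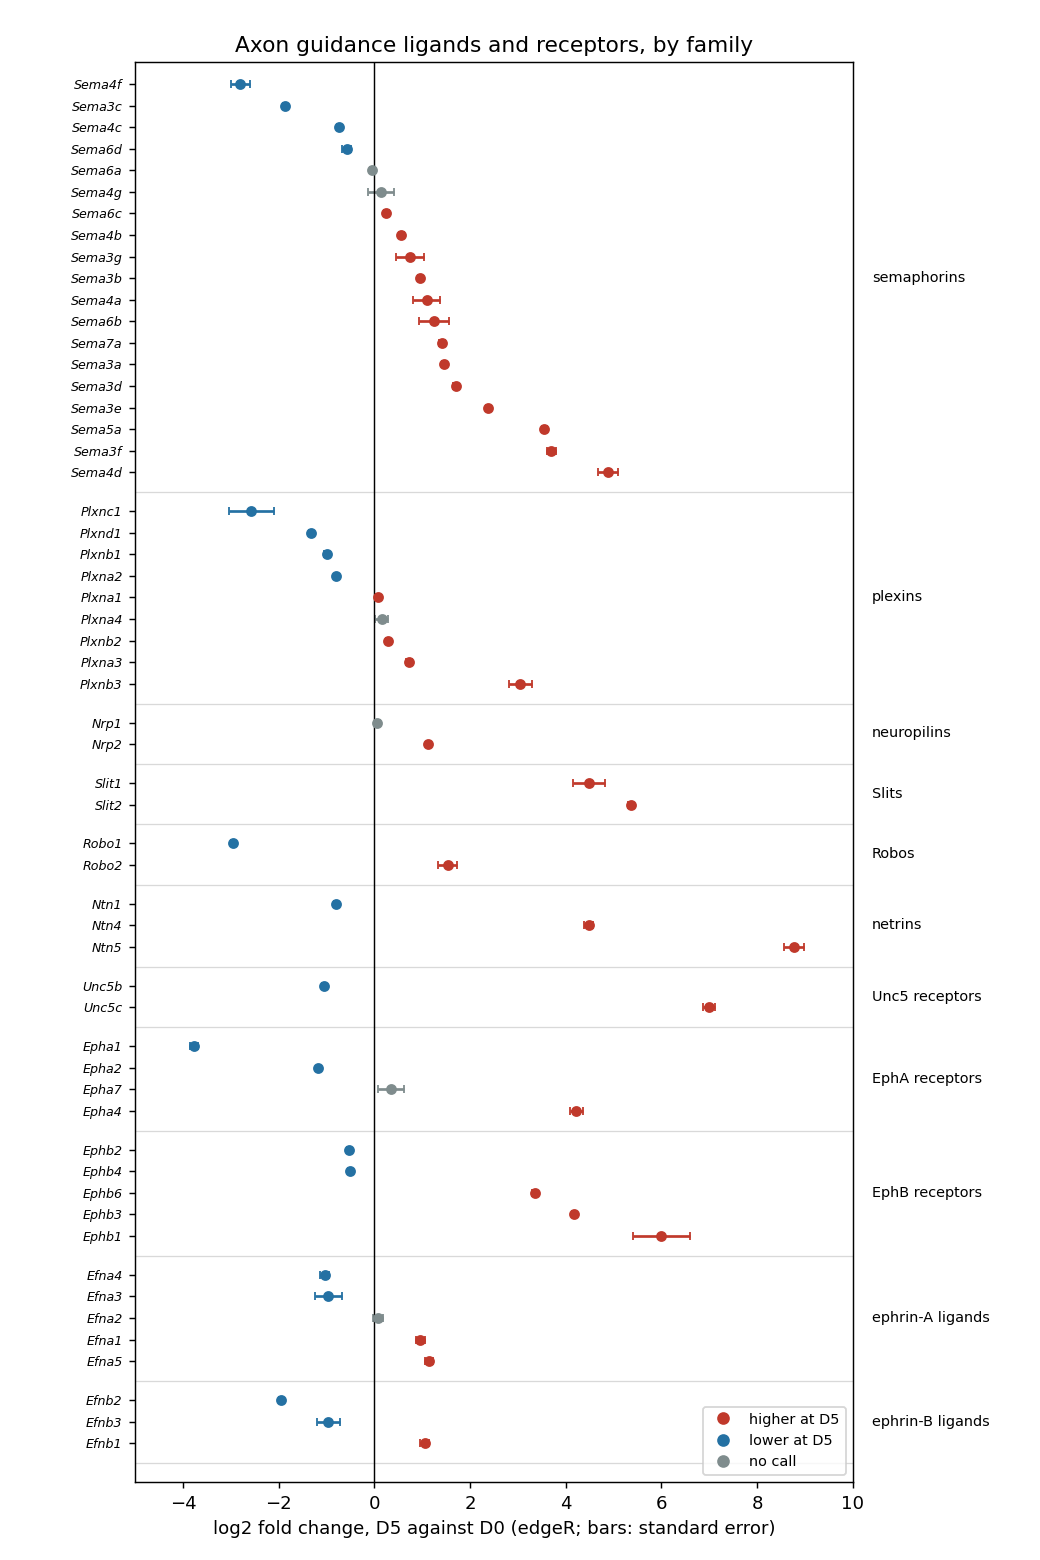
Log2 fold change (D5 against D0) of each guidance gene tested, by family, with standard errors from edgeR's test. The Eph receptor *Epha1* lies lowest at -3.77, and the plexins apart from *Plxnc1* and *Plxnb3* lie between -1.33 and 0.72. The points of *Ntn5* and *Ephb1* are fitted values against libraries with at most 3 counts.

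The RefSeq promoters of 6 genes with large changes in the families described first are shown with some forms of the E-box in capitals. The E-box is the short motif that MyoD and other factors with a helix-loop-helix domain bind. An E-box was searched in the form CAGCTG, and in a second form that reads CACCTG on one strand and CAGGTG on the other. Other forms of the E-box were not searched and stand in lower case. The 6 were chosen after their values were seen. Each runs from 250 bases before to 50 bases after the start on GRCm38.p6, in the direction of the gene. *Slit2*, *Ntn5*, *Unc5c* and *Ephb3* were higher in myotubes, and *Robo1* and *Epha1* were lower.
Slit2, chr5:47982905-47983204, plus strand: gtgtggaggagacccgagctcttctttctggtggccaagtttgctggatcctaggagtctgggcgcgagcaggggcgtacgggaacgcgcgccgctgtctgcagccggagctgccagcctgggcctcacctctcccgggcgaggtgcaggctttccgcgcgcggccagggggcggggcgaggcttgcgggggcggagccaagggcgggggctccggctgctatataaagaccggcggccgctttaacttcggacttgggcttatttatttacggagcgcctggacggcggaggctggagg
Ntn5, chr7:45683772-45684071, plus strand: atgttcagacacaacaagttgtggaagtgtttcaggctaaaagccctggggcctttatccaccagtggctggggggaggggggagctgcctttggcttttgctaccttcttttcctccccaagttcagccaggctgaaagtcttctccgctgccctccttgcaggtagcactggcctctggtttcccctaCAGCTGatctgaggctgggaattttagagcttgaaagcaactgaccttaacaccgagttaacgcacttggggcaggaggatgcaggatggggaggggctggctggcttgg
Unc5c, chr3:141465314-141465613, plus strand: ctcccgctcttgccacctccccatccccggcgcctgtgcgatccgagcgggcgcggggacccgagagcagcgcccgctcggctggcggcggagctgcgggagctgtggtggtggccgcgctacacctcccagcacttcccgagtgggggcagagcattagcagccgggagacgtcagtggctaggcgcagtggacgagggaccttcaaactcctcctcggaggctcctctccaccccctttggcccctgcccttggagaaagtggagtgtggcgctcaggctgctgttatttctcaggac
Ephb3, chr16:21204545-21204844, plus strand: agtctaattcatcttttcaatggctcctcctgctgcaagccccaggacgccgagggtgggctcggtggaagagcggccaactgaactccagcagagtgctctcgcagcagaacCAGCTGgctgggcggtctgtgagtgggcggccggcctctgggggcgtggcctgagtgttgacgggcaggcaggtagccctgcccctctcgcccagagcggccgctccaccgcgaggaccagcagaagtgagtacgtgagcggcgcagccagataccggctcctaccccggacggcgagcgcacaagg
Robo1, chr16:72662899-72663198, plus strand: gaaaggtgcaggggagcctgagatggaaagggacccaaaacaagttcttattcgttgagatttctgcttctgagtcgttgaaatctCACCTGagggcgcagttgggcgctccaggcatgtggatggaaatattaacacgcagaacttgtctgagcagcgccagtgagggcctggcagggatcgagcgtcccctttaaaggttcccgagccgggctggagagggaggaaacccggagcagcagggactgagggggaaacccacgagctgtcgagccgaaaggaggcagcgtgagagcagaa
Epha1, chr6:42373219-42373518, minus strand: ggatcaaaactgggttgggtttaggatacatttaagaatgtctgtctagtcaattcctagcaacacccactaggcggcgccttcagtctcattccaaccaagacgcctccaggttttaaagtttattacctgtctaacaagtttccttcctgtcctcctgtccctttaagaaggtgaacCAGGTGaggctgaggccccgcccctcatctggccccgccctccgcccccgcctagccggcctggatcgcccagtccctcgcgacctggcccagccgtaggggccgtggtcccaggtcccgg
The capitals mark CAGCTG in the *Ntn5* window, 60 bases before the start, and in the *Ephb3* window, 137 bases before it. In the *Robo1* window CACCTG stands 164 bases before the start, and in the *Epha1* window CAGGTG stands 71 bases before it. The windows of *Slit2* and *Unc5c* held neither form. The *Robo1* start lies inside the longer GENCODE gene model, which begins at 72308306 on chromosome 16. The whole *Unc5c* window also lies inside its GENCODE gene model, which begins at 141465216 on chromosome 3.

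Promoters were listed for 58 of the 67 guidance genes, with 74 starts. CAGCTG, read on both strands, was present at 12 of the 74 starts (16.2%), beside 16.3% of all 32851 RefSeq starts. The pair CACCTG and CAGGTG, which are the same motif on opposite strands, was present at 10 of the 74 starts (13.5%), beside 20.2% of all starts. Among the genes called higher, 8 of 39 starts held CAGCTG and 2 held the other motif, and among the genes called lower 0 of 20 held CAGCTG and 7 held the other. These counts describe the letters in the window, and several starts belong to 1 gene.

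The Slit and Robo families were most changed in *Slit2* and *Robo1*, a ligand and its receptor that moved in opposite directions. *Slit2* (ENSMUSG00000031558.15, chr5:47983138-48307733), a secreted repellent, had 4.08, 4.61 and 4.54 CPM in D0 replicates 1 to 3 and 181, 176 and 187 CPM in D5 replicates 1 to 3. Every myotube library lay far above every myoblast library, and expression of *Slit2* rose 41.0-fold (log2 fold change 5.36, SE 0.053, adjusted p = 5.3e-36 in edgeR's test). *Slit1*, a paralog known mainly from the brain, had 2, 3 and 4 counts at D0 and 38, 48 and 46 counts at D5 (log2 fold change 4.49, SE 0.34, adjusted p = 2.7e-13 in edgeR's test). Because *Slit1* passed the filter through the myotube libraries alone, it had to differ. The counts behind *Slit1* were few, and its level per length in myotubes was 0.925 ± 0.102 TPM (the same per base of exonic length and summing to 1000000 in a library, SD, n = 3), below the 22.1 ± 0.894 TPM of *Slit2*.

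*Robo1* (ENSMUSG00000022883.11, chr16:72308306-73046095), the Slit receptor with most RNA here, had 164, 163 and 172 CPM in the D0 cultures and 21.5, 21 and 21.4 CPM in the D5 cultures. The groups did not overlap, and myotubes kept 12.8% of the myoblast level (log2 fold change -2.96, SE 0.042, adjusted p = 7.2e-32 in edgeR's test). *Robo2*, a second Slit receptor, had 0.694, 0.879 and 0.769 CPM at D0 and 1.91, 2.55 and 2.33 CPM at D5, which was a rise of 2.88-fold (adjusted p = 4.2e-08 in edgeR's test). This rise was not called when counts were scaled to the ERCC spike-ins (adjusted p = 0.163 in edgeR's test). *Robo1* still made up 90.5% ± 1.36 (SD, n = 3) of the family's summed TPM in myotubes, after 99.5% ± 0.0482 in myoblasts.

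Among netrins the shares of the members changed, although *Ntn1* kept the largest share. *Unc5b* remained the Unc5 receptor with the highest level per length. *Ntn1* (ENSMUSG00000020902.12, chr11:68209364-68400823), the netrin known for guiding commissural axons, had 111, 109.8 and 109 CPM in myoblasts and 63.6, 61.6 and 64.6 CPM in myotubes. It fell to 57.5% of its myoblast level (log2 fold change -0.80, SE 0.036, adjusted p = 1.0e-18 in edgeR's test). *Ntn4* (ENSMUSG00000020019.4, chr10:93640681-93747207), a netrin of basement membranes that binds laminin, had 1.15, 1.35 and 1.19 CPM at D0 and 28.0, 27.9 and 27.0 CPM at D5. *Ntn4* therefore rose 22.3-fold (log2 fold change 4.48, SE 0.09, adjusted p = 4.7e-28 in edgeR's test).

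*Ntn5* (ENSMUSG00000070564.15, chr7:45684022-45694556), a less studied netrin, had 1, 1 and 2 counts in the myoblast libraries and 428, 429 and 359 counts in the myotube libraries. All 3 myoblast libraries were at or under 3 counts, so the fold is a lower bound, and against 3 counts in each D0 library *Ntn5* was at least 216-fold higher in myotubes (adjusted p = 7.3e-26 in edgeR's test). Since *Ntn5* passed the filter through the myotube libraries alone, it had to differ. The gene *Sec1* covers 23.4% of the exonic length of *Ntn5* on the opposite strand and had 6, 11 and 8 counts at D0 and 24, 41 and 42 at D5, fewer than *Ntn5* in every myotube library. Since the strand setting of the counting is not stated, reads from the shared stretch cannot be told apart.

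By length-corrected level, *Ntn1* made up 98.1% ± 0.160 of the summed netrin TPM in myoblasts and 40.6% ± 1.96 in myotubes (SD, n = 3 each). In myotubes *Ntn4* made up 29.8% ± 0.255 and *Ntn5* 29.6% ± 2.2 of the sum. The sum itself was 61.8 ± 0.421 TPM at D0 and 77.0 ± 3.14 TPM at D5.

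Of the Unc5 receptors, which mediate repulsion by netrins, *Unc5b* (ENSMUSG00000020099.8, chr10:60762593-60831581) had 273, 281 and 282 CPM in myoblasts and 125, 136 and 138 CPM in myotubes. The groups were well apart, and *Unc5b* fell 2.09-fold (log2 fold change -1.06, SE 0.037, adjusted p = 6.4e-22 in edgeR's test). *Unc5c* (ENSMUSG00000059921.15, chr3:141465216-141834924) had 14, 10 and 5 counts in myoblasts and 797, 789 and 765 counts in myotubes. That was a rise of 128-fold (log2 fold change 7.0, SE 0.13, adjusted p = 3.6e-29 in edgeR's test), the largest among the receptors with a fold that is no lower bound. Only at D5 did *Unc5c* reach the filter's level in all 3 libraries, so its test was not free of the filter. Even so, *Unc5b* made up 92.5% ± 0.433 of the summed Unc5 TPM in myotubes and *Unc5c* 7.16% ± 0.453 (SD, n = 3 each). *Unc5a* had 4, 2 and 5 counts at D0 and 7, 9 and 8 at D5 and was not tested.

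**Figure D2:**
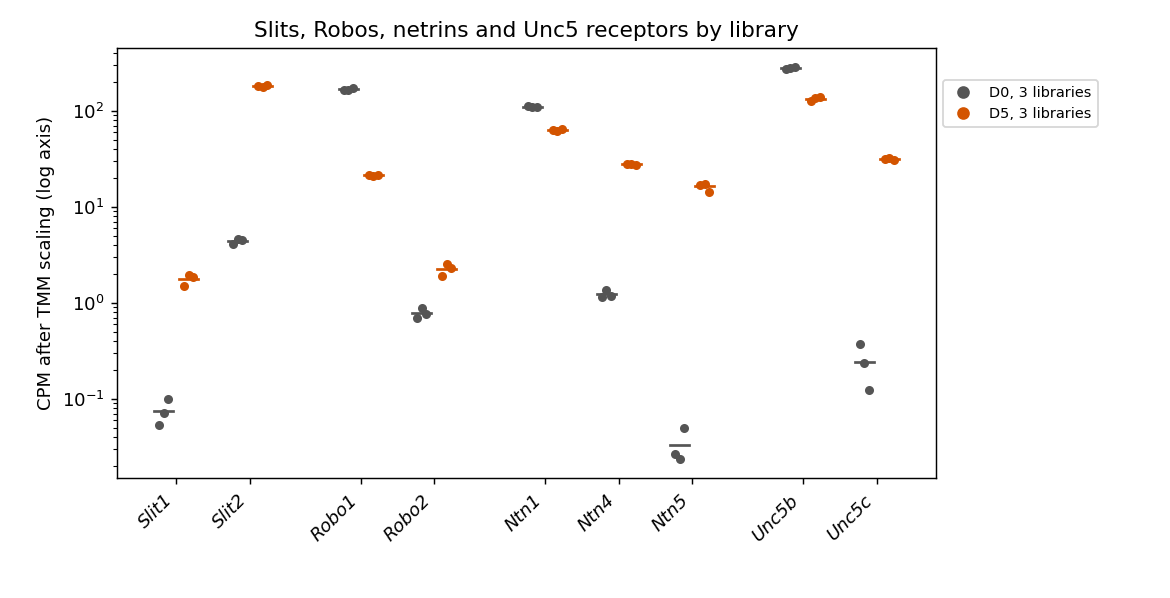
CPM on a log axis in each of the 3 D0 and 3 D5 libraries for Slits, Robos, netrins and Unc5 receptors, with group means. *Slit2*, *Ntn4*, *Ntn5* and *Unc5c* lie higher in all 3 myotube libraries, and *Robo1*, *Ntn1* and *Unc5b* lie lower.

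Among the 20 semaphorins, 19 were tested, of which 13 were higher in myotubes and 4 lower, with a median log2 fold change of 0.96. The secreted class 3 semaphorins were all tested, and 6 of the 7 were higher. The exception was *Sema3c* (ENSMUSG00000028780.13, chr5:17574281-17730268), which binds neuropilins and plexin D1 and had the highest level per length of any semaphorin in myoblasts, 179 ± 4.97 TPM (SD, n = 3). *Sema3c* had 377, 377 and 353 CPM at D0 and 101, 105 and 97.2 CPM at D5, with every myotube library below every myoblast library. It fell 3.65-fold (log2 fold change -1.87, SE 0.037, adjusted p = 3.6e-28 in edgeR's test).

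*Sema3e* (ENSMUSG00000063531.7, chr5:14025276-14256689), which signals through plexin D1 without a neuropilin, had 26.7, 25.4 and 26.6 CPM in myoblasts and 137, 133 and 136 CPM in myotubes. The groups were far apart, and the rise was 5.17-fold (log2 fold change 2.37, SE 0.04, adjusted p = 3.8e-30 in edgeR's test). *Sema3f*, which prefers neuropilin-2, had 1.65, 1.47 and 1.66 CPM at D0 and 20.7, 19.4 and 22.4 CPM at D5, a rise of 13-fold (adjusted p = 5.7e-25 in edgeR's test). *Sema3d* had 20.6, 19.4 and 20.2 CPM in myoblasts and 64.2, 69.5 and 62.0 CPM in myotubes, which was 3.25-fold higher (adjusted p = 6.6e-24 in edgeR's test).

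*Sema3a*, a ligand of neuropilin-1 that muscle satellite cells secrete, had 23.9, 22.1 and 23.1 CPM at D0 and 60.9, 64.2 and 65.3 CPM at D5, a rise of 2.76-fold (adjusted p = 7.8e-23 in edgeR's test). With scaling to the ERCC spike-ins, the rises of *Sema3a* and *Sema3d* were not called (adjusted p = 0.176 and 0.0706 in edgeR's test), and neither were those of *Sema3b* and *Sema3g*. *Sema3b* was 1.95-fold higher in the main comparison, and *Sema3g*, at under 1 CPM in every library, was not called by DESeq2 (adjusted p = 0.0776), nor without D0 replicate 2 (log2 fold change 0.47) or D5 replicate 2 (0.70).

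Of the 13 semaphorins of classes 4 to 7, most of which are anchored in the membrane, 12 were tested, 7 were higher and 3 lower (median log2 fold change 0.41). *Sema5a* (ENSMUSG00000022231.10, chr15:32244810-32696341), a ligand of plexin B3, had 9.07, 9.20 and 8.61 CPM in myoblasts and 103, 104 and 108 CPM in myotubes. It rose 11.7-fold (log2 fold change 3.55, SE 0.049, adjusted p = 2.5e-32 in edgeR's test). *Sema4d*, the ligand of plexin B1, had 6, 10 and 6 counts at D0 and 149, 128 and 137 counts at D5, a rise of 29.6-fold (log2 fold change 4.89, SE 0.21, adjusted p = 2.7e-19 in edgeR's test). As *Sema4d* passed the filter through the myotube libraries alone, it had to differ. *Sema7a*, which is held in the membrane by a lipid anchor, had 7.44, 7.68 and 7.84 CPM in myoblasts and 20.7, 20.4 and 20.0 CPM in myotubes (log2 fold change 1.41, SE 0.066, adjusted p = 2.4e-18 in edgeR's test), but scaling to the ERCC spike-ins ended this call (adjusted p = 0.205 in edgeR's test).

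*Sema4f* showed the largest fall of the family and had 5.25, 5.49 and 5.29 CPM at D0 and 0.398, 1.01 and 0.884 CPM at D5, 6.97-fold lower in myotubes (log2 fold change -2.80, SE 0.19, adjusted p = 1.2e-14 in edgeR's test). *Sema4c* and *Sema6d* also fell, by smaller amounts (log2 fold changes -0.74 and -0.58). The rises of *Sema4a*, *Sema4b*, *Sema6b* and *Sema6c* lay between 0.25 and 1.24 on the log2 scale, and these 4 were not called with scaling to the ERCC spike-ins. *Sema6a*, a transmembrane ligand of A-type plexins, had the highest level per length in myotubes, 88.6 ± 2.88 TPM after 103 ± 4.20 TPM (SD, n = 3 each). Its groups overlapped, with 255, 258 and 268 CPM at D0 and 249.7, 245 and 257 CPM at D5, and the difference was not called (log2 fold change -0.05, SE 0.033, adjusted p = 0.126 in edgeR's test).

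**Figure D3:**
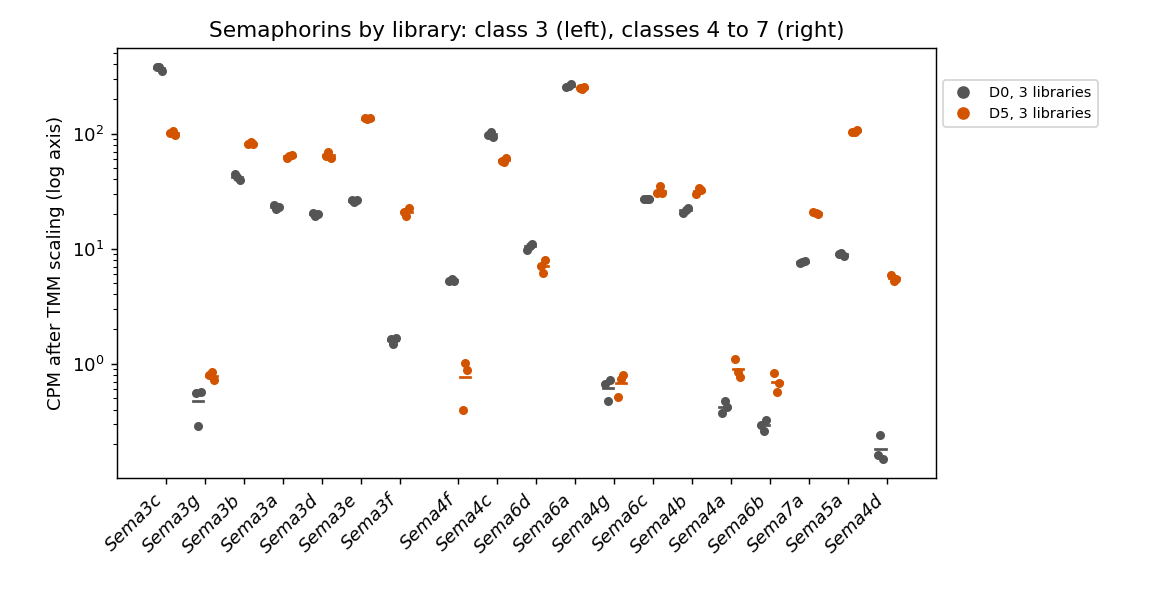
CPM on a log axis in each of the 3 D0 and 3 D5 libraries for the 19 semaphorins tested, class 3 on the left, with group means as bars. *Sema3e*, *Sema3f*, *Sema4d* and *Sema5a* lie higher in the myotube libraries, *Sema3c* and *Sema4f* lie lower, and *Sema6a* overlaps.

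Plexins, the receptors for semaphorins, moved in both directions. Of the 9 plexins, 4 were higher and 4 lower in myotubes with a median log2 fold change of 0.07. *Plxnb2*, a receptor of *Sema4c*, had the highest level per length in both groups, 166 ± 3.47 TPM at D0 and 181 ± 1.78 TPM at D5 (SD, n = 3 each). It had 369, 371 and 372 CPM in myoblasts and 437, 455 and 458 CPM in myotubes, a rise of 1.21-fold (adjusted p = 2.7e-09 in edgeR's test), whose sign turned with scaling to the ERCC spike-ins (log2 fold change -0.29).

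*Plxnd1* (ENSMUSG00000030123.15, chr6:115954811-115995005), the receptor of *Sema3e*, had 339.7, 347 and 346 CPM at D0 and 136, 137 and 137 CPM at D5. It fell 2.52-fold (log2 fold change -1.33, SE 0.032, adjusted p = 7.1e-26 in edgeR's test), while its ligand *Sema3e* rose. *Plxnb3*, the receptor of *Sema5a*, had 0.427, 0.285 and 0.223 CPM in myoblasts and 2.23, 2.55 and 2.97 CPM in myotubes, a rise of 8.27-fold (adjusted p = 9.8e-13 in edgeR's test). Only at D5 did *Plxnb3* reach the filter's level in all 3 libraries, so its test was not free of the filter. *Plxnb1*, the receptor of *Sema4d*, fell from 53.5 ± 1.14 to 26.8 ± 0.675 CPM (SD, n = 3 each, adjusted p = 1.1e-18 in edgeR's test). *Plxna2* and *Plxnc1* were lower as well (log2 fold changes -0.80 and -2.57), and *Plxna3* was higher (0.72), a call that scaling to the ERCC spike-ins ended. Of these, *Plxnc1* passed the filter through the myoblast libraries alone, so it had to differ.

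*Plxna1* was called higher by a margin (log2 fold change 0.07, adjusted p = 0.0452 in edgeR's test), and it was not called in 5 of the 6 fits that left out 1 library, where the log2 fold change lay between 0.05 and 0.10, and turned to -0.49 with scaling to the ERCC spike-ins and to -0.013 with total counts. *Plxna4* was not called. Of the neuropilins, *Nrp2* (ENSMUSG00000025969.15, chr1:62703285-62818695), co-receptor for *Sema3f* and *Sema3c*, had 173, 173 and 172 CPM at D0 and 376, 362 and 395 CPM at D5. The rise was 2.19-fold (log2 fold change 1.13, SE 0.034, adjusted p = 2.3e-23 in edgeR's test), and it was not called with scaling to the ERCC spike-ins (adjusted p = 0.429 in edgeR's test). *Nrp1*, the co-receptor for *Sema3a*, had 42.4, 45.7 and 46.0 CPM in myoblasts and 48.3, 43.6 and 48.1 CPM in myotubes, and its groups overlapped (adjusted p = 0.22 in edgeR's test).

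The Eph receptors held as many genes called higher as lower, 4 each of the 9 tested, but the members that led the family differed between groups. *Epha2* (ENSMUSG00000006445.3, chr4:141301240-141329384), a receptor for ephrin-A ligands, had 135, 138 and 143 CPM in myoblasts and 62.0, 63.0 and 59.8 CPM in myotubes. It fell 2.25-fold (log2 fold change -1.17, SE 0.037, adjusted p = 9.7e-23 in edgeR's test). *Epha1* (ENSMUSG00000029859.6, chr6:42358487-42373268), the first member of the family described, had 29.6, 28.8 and 28.8 CPM at D0 and 1.71, 1.95 and 2.73 CPM at D5. *Epha1* fell 13.6-fold (log2 fold change -3.77, SE 0.093, adjusted p = 1.3e-25 in edgeR's test), the largest fall of any guidance gene tested. The gene *Zyx* covers 6.01% of the exonic length of *Epha1* on the opposite strand and fell too, from 41377, 45569 and 44606 counts to 5115, 5787 and 5793. The counts of *Epha1* were 1111, 1212 and 1162 at D0, and the share of them that came from *Zyx* reads was not tested.

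*Ephb6* (ENSMUSG00000029869.7, chr6:41605482-41620509), an Eph receptor without kinase activity, had 14.5, 13.7 and 13.6 CPM in myoblasts and 134, 143 and 149 CPM in myotubes. The groups were far apart, a rise of 10.2-fold (log2 fold change 3.35, SE 0.047, adjusted p = 5.8e-32 in edgeR's test). *Ephb3* (ENSMUSG00000005958.15, chr16:21204755-21223305), a receptor for ephrin-B ligands, had 8.27, 8.41 and 8.49 CPM at D0 and 147, 152 and 155 CPM at D5. It rose 18.0-fold (log2 fold change 4.17, SE 0.047, adjusted p = 1.4e-34 in edgeR's test). *Epha4*, which binds ephrins of both classes, had 0.694, 0.951 and 0.645 CPM at D0 and 14.4, 15.0 and 13.8 CPM at D5, 18.7-fold higher (log2 fold change 4.22, SE 0.13, adjusted p = 1.4e-23 in edgeR's test).

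*Ephb1* had 0, 0 and 1 counts in myoblasts and 17, 21 and 20 in myotubes, at least 10.3-fold higher against 3 counts in each D0 library (adjusted p = 1.9e-10 in edgeR's test). Having passed the filter through the myotube libraries alone, *Ephb1* had to differ. *Ephb4*, the main receptor for ephrin-B2, and *Ephb2* were lower in myotubes (log2 fold changes -0.51 and -0.53), and these falls were not called with scaling to the ERCC spike-ins (adjusted p = 0.0993 and 0.0872 in edgeR's test). *Epha7*, at under 1 CPM in every library, was not called.

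Of the 8 ephrins, 3 were higher and 4 lower in myotubes, and none changed by more than 1.95 on the log2 scale in either direction. *Efnb2* (ENSMUSG00000001300.16, chr8:8617434-8661242), the transmembrane ligand known from arteries, had 79.8, 77.9 and 82.9 CPM at D0 and 19.6, 21.4 and 21.1 CPM at D5. It fell 3.87-fold (log2 fold change -1.95, SE 0.047, adjusted p = 6.7e-26 in edgeR's test). *Efnb1* was higher in myotubes, with 6.19, 5.20 and 6.65 CPM at D0 and 12.5, 12.7 and 12.2 CPM at D5 (log2 fold change 1.05, SE 0.087, adjusted p = 2.7e-12 in edgeR's test). *Efna5*, a lipid-anchored ligand, had 5.23, 5.78 and 5.91 CPM in myoblasts and 12.7, 12.6 and 12.4 CPM in myotubes (log2 fold change 1.15, SE 0.082, adjusted p = 7.6e-14 in edgeR's test).

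*Efna4* went the other way, with 9.76, 9.65 and 9.35 CPM at D0 and 5.29, 4.42 and 4.30 CPM at D5 (log2 fold change -1.04, SE 0.096, adjusted p = 3.2e-11 in edgeR's test). *Efna1* was higher (log2 fold change 0.96), *Efna3* and *Efnb3* were lower (-0.96 each) and *Efna2* was not called. With scaling to the ERCC spike-ins none of the 3 rises in this family was called. Of *Efna3* and *Efna4*, 14.1% and 10.5% of the exonic length lies under a gene on the opposite strand, each of which had at most 24 counts in a library. *Efna3* itself had 32, 44 and 43 counts at D0 and 14, 7 and 17 at D5. The gene opposite it, *Gm15998*, had 22, 7 and 16 counts at D0 and 3, 1 and 2 at D5. The share of the *Efna3* counts that came from *Gm15998* reads was not tested.

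**Figure D4:**
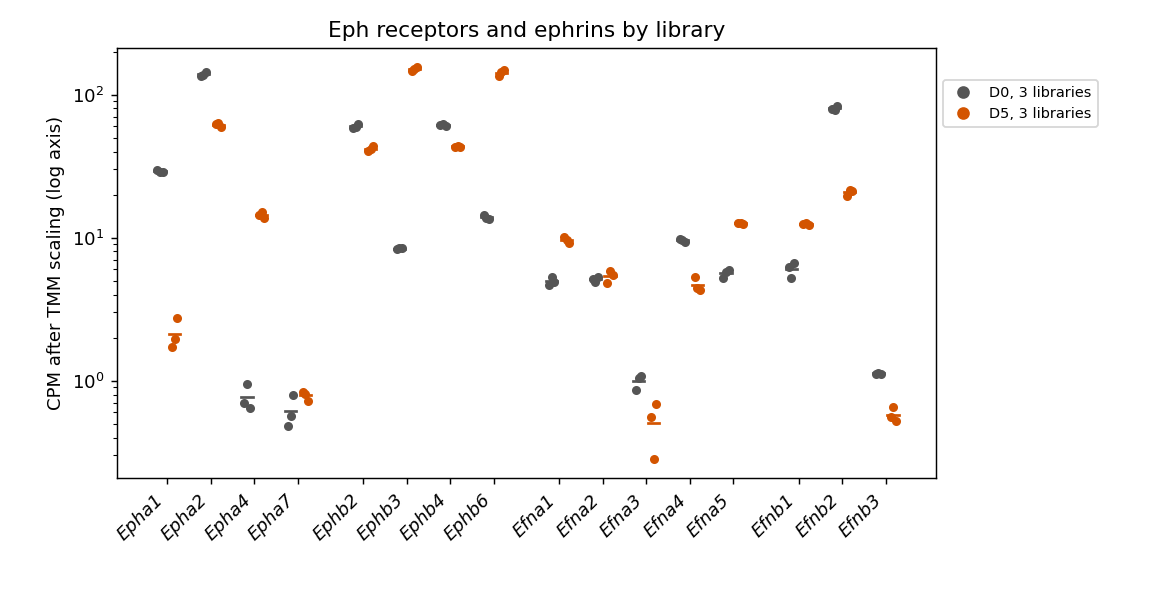
CPM on a log axis in each of the 3 D0 and 3 D5 libraries for Eph receptors and ephrins, with group means as bars. *Ephb1*, with 0 counts in 2 libraries, is not drawn. *Ephb3*, *Ephb6* and *Epha4* lie higher in all myotube libraries, and *Epha1*, *Epha2* and *Efnb2* lie lower.

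Level per length showed the same change of members within the Eph receptors. *Epha2* made up 49.2% ± 0.869 of the summed Eph receptor TPM in myoblasts and 14.9% ± 0.726 in myotubes, while *Ephb6* went from 6.14% ± 0.281 to 42.3% ± 1.00 and *Ephb3* from 2.10% ± 0.00982 to 25.7% ± 0.0986 (SD, n = 3 each). The summed level was 208 ± 5.67 TPM at D0 and 275 ± 4.66 TPM at D5. Among semaphorins the share of *Sema3c* went from 39.0% ± 0.900 to 11.0% ± 0.426, and that of *Sema6a* was 22.4% ± 0.924 and 22.2% ± 0.537. Among plexins *Plxnb2* went from 35.3% ± 0.0511 to 51.6% ± 0.187 and *Plxnd1* from 34.6% ± 0.189 to 16.6% ± 0.256. These shares come from values within a library, so they do not depend on how libraries were scaled.

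**Figure D5:**
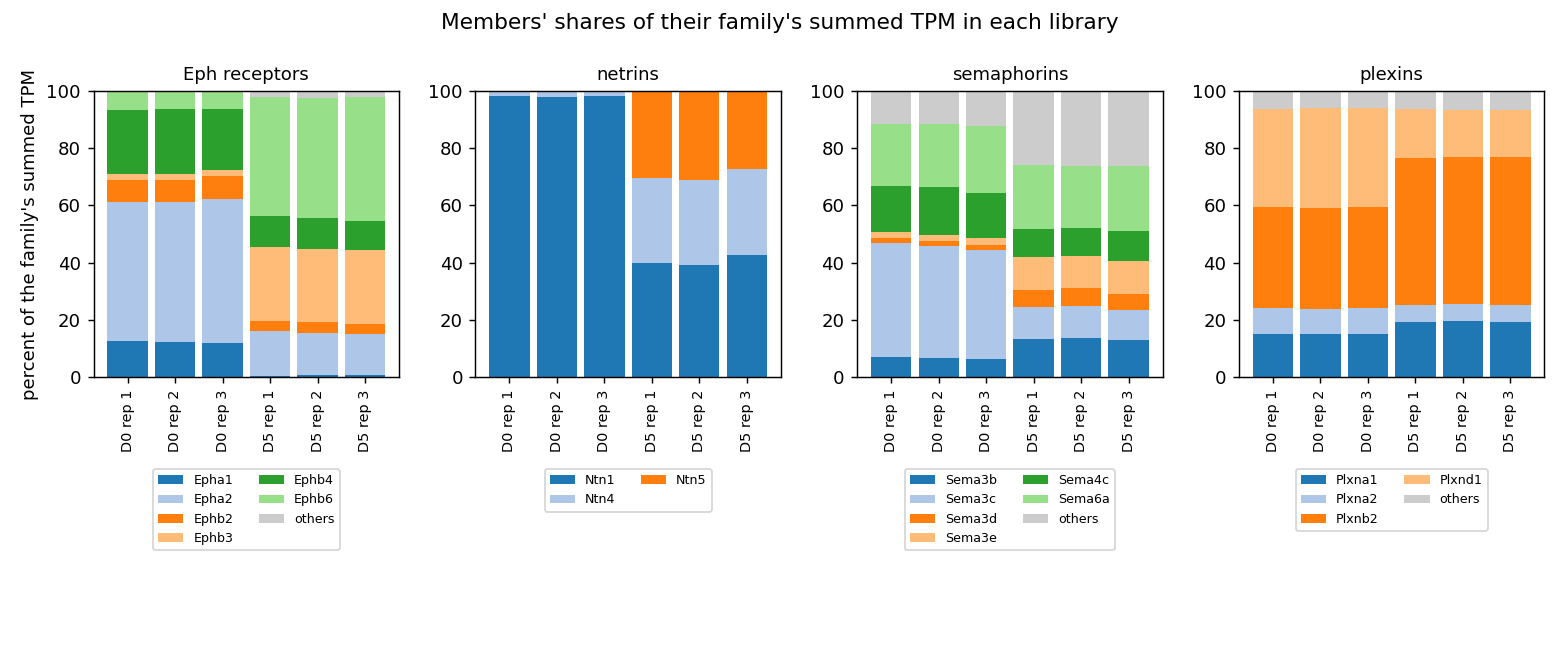
Stacked bars of the percent of each family's summed TPM taken by each member in each of the 6 libraries. *Ntn1* and *Epha2* took the largest shares of their families in myoblasts (means 98.1% and 49.2%), and in myotubes *Ephb6* led the Eph receptors (42.3%) and *Plxnb2* the plexins (51.6%).

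Partner genes of these pathways, among them co-receptors, other guidance cues, adhesion molecules and downstream genes, were taken from lists of 65 genes. Of these 58 were tested, 26 higher (44.8%) and 30 lower (51.7%) in myotubes, with a median log2 fold change of -0.18. Together 96.6% of them were called, beside 82.9% of all genes tested. When counts were scaled to the ERCC spike-ins, 5 were called higher and 19 lower. Of the 16 Slit and Robo effectors 6 were higher and 9 lower, of the 18 semaphorin and plexin effectors 6 were higher and 12 lower, of the 16 Eph and ephrin effectors 9 were higher and 6 lower, and of the 8 netrin and repulsive guidance partners tested 5 were higher and 3 lower. *Hfe2*, the older symbol of hemojuvelin, a repulsive guidance molecule of muscle and liver that acts in iron balance, had 26, 30 and 25 counts at D0 and 6479, 6388 and 6517 counts at D5. It rose 382-fold (log2 fold change 8.58, adjusted p = 7.3e-39 in edgeR's test). *Dcc*, the attractive netrin receptor, had at most 1 count in any library. *Neo1*, the neogenin receptor that binds netrins and hemojuvelin, went from 231 ± 6.75 to 184 ± 7.89 CPM (SD, n = 3 each, log2 fold change -0.32, adjusted p = 1.1e-09 in edgeR's test). With scaling to the ERCC spike-ins the fall of *Neo1* was larger (-0.88) but not called (adjusted p = 0.178 in edgeR's test).

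*Chn2*, which encodes a Rac inhibitor, was 11.7-fold higher in myotubes and *Srgap3*, a Slit-Robo GTPase activator, 5.05-fold higher. *Chn2* had 0.507, 0.547 and 0.695 CPM at D0 and 7.72, 7.18 and 5.66 CPM at D5, and *Srgap3* had 18.8, 19.7 and 20.3 CPM at D0 and 98.1, 98.9 and 100.3 CPM at D5. Among partners called with a mean of at least 1 CPM in a group, the largest falls were those of *Dscam*, *L1cam* and *Mical2*. Below that level, and named after their values were seen, *Crmp1* had 28, 45 and 28 counts at D0 and 0 in all 3 D5 libraries, and *Arhgef15* had 22, 15 and 22 counts at D0 and 1, 3 and 1 at D5. Against 3 counts in each D5 library they were at least 6.95-fold and at least 4.12-fold lower in myotubes. *Dscam*, a cell adhesion molecule that also binds netrins, had 6.40, 6.23 and 7.02 CPM at D0 and 0.597, 0.608 and 0.321 CPM at D5. *L1cam*, another adhesion molecule of axons, had 39.9, 38.4 and 37.7 CPM at D0 and 4.50, 5.35 and 4.38 CPM at D5. *Mical2*, an actin-oxidizing enzyme, went from 708 ± 17.3 to 125 ± 0.274 CPM (SD, n = 3 each, log2 fold change -2.50, adjusted p = 2.3e-32 in edgeR's test).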

How the data were processed

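RNA-seq covered 3 myoblast (D0) and 3 myotube (D5) cultures of C2C12. The authors deposited raw counts per gene of GRCm38, made with featureCounts, as 1 file per culture. The paper and the labels name different aligners (HISAT2 and Tophat2), and the sources differ on which was used. How strand was set and the handling of reads with several matches are not given in the sources used here. The labels also list DESeq2 1.6.3, which the deposited counts do not depend on.

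Each file held 54525 gene rows, 92 ERCC spike-in rows and 1 row without a name that equalled its column's total. Library sizes and tests used the gene rows only. Spike-ins took 0.720% to 2.09% of the counts. Gene rows were matched to GENCODE M21 by Ensembl identifier (99.9%). Replicate pairs within a group differed by more than sampling noise (chi-square per degree of freedom 2.16 to 3.45) and were counted as separate samples.

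TMM factors, CPM and the quasi-likelihood test came from edgeR 4.0.16 in R 4.3.3, after filterByExpr, with Benjamini-Hochberg adjustment over 16290 genes and a threshold of 0.05. SE is the size of the log2 fold change over the square root of F. TPM were computed from exonic length without TMM. An exact permutation test of 3 against 3 cannot go below 0.1. The members, lists and tests were chosen with earlier results of these data known.

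Values in every library are printed for members called with at least 2-fold change and a mean of at least 1 CPM in a group, and for the member of each family with the highest level per length. The alternatives were DESeq2 1.42.0, upper-quartile normalization, total counts, ERCC scaling, no filter, a minimum of 10 counts in all 6 libraries, fits without 1 library and the replicate number as a block. The script was tested on simulated data. Promoters came from RefSeq, GRCm38.p6. No protein sequences were used.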

Additional observations from a re-analysis of the deposited data

How the results depend on the processing

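With scaling to the ERCC spike-ins, which moved the median log2 fold change of all genes tested to -0.58 (that of total counts to -0.08), 5560 genes were called instead of 13510. The guidance genes called higher then numbered 14 instead of 31 and those called lower 16 instead of 19, semaphorins higher 4 instead of 13, plexins and neuropilins higher 1 instead of 5, ephrins higher 0 instead of 3 and Eph receptors lower 2 instead of 4. Partner genes called higher numbered 5 instead of 26 and lower 19 instead of 30. The log2 fold change turned to -0.48 for *Efna2*, -0.27 for *Epha7*, -0.53 for *Nrp1*, -0.49 for *Plxna1*, -0.46 for *Plxna4*, -0.29 for *Plxnb2*, -0.52 for *Sema4g* and -0.28 for *Sema6c*. The spike-ins' share of the counts varied from 0.720% to 2.09% among the D5 libraries, and the cause of the difference was not tested. With total counts, *Efna2* was at -0.0044, *Nrp1* at -0.023 and *Plxna1* at -0.013. With a minimum of 10 counts in all 6 libraries, netrins and Unc5 receptors called higher numbered 1 instead of 3, because fewer genes were tested.

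Across TMM, DESeq2 size factors, upper-quartile, total counts and ERCC scaling, 14 of the 31 genes called higher and 16 of the 19 called lower were called in the same direction in all 5. The fits without 1 library gave 13236 to 13599 genes called, 29 to 32 guidance genes higher and 19 to 20 lower. *Sema4g* ranged from -0.033 to 0.31 in these fits. *Nrp1* was called without D5 replicate 2 (0.11), and *Sema6a* was called lower without D0 replicate 1 (-0.085), with total counts (-0.14) and with no filter (-0.11).

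Same-numbered samples had correlations of deviations of 0.0329, 0.0645 and 0.0277, so the numbers were not taken as pairs, although every sample correlated best with its own number. With the replicate block, 13558 genes were called, and no call among the guidance genes changed. For members under 1 CPM the fold rests on few counts, and counting error limits it.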
